A study of Mus musculus with 20 samples.

Results

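Hearts of E13.5 mouse embryos lacking Creld1 in the myocardium were compared with hearts of wild-type littermates in 8 RNA sequencing libraries, which are all the E13.5 libraries among the 20 of the series. They were taken by their titles and make up 4 knockout (KO) and 4 wild-type (WT) libraries. The KO embryos carry the genotype MyHC-Creld1 KO, a deletion in heart muscle under a myosin heavy chain driver, and the strain is C57BL/6N throughout. Each library came from the whole heart of 1 embryo, so that valve, vessel, fibroblast, epicardial and blood cells, in which a heart muscle driver is normally silent, were sequenced together with the muscle. The labels give neither the deleted exons nor whether WT embryos carried the driver or a modified Creld1 allele. Replicate 1 of each genotype came from 1 litter, replicates 2 and 3 shared another, and replicate 4 came from yet another. The hearts of replicates 1 to 3 were prepared in 2016 and those of replicate 4 in 2018. The other 12 libraries, 3 KO and 3 WT from ventricles and as many from atria at postnatal day 3 (P3), are used at the end to test differences between stages. They came from 6 pups, each of which gave its atria and its ventricles.

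Creld1 encodes a membrane protein of the endoplasmic reticulum with epidermal growth factor-like domains. Its missense variants are associated with atrioventricular septal defects in people, and in mice it promotes signalling by calcineurin, the phosphatase that sends NFAT transcription factors to the nucleus, during valve formation. At E13.5 the mouse heart has just closed, or is closing, its septa, its cushions are turning into valve leaflets, and its ventricular wall is compacting. Loss of a gene in the muscle at this stage can be read out in the muscle itself and in the cushion, endocardial and epicardial cells that exchange signals with it.

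Creld1 (chromosome 6, 113483297 to 113493343, plus strand of mm10) had a normalized signal of 70.9, 7.48, 38.4 and 4.64 in KO replicates 1 to 4, against 66.0, 92.2, 60.8 and 34.0 in WT replicates 1 to 4. The groups overlapped, because the library labelled KO replicate 1 lay above its own WT littermate and KO replicate 3 lay above WT replicate 4. Means were 30.3 ± 31.0 in KO hearts and 63.2 ± 23.8 in WT hearts (SD, n = 4 each). The log2 fold change, KO minus WT on the log2(signal + 1) scale used throughout, was -1.66 with a 95% confidence interval of -3.40 to 0.08. An exact two-sided permutation test over the 70 ways to place the genotype labels gave p = 0.2, where the smallest p it allows is 0.0286. Within litters the differences for replicates 1 to 4 were 0.10, -3.46, -0.65 and -2.64, and the exact sign-flip test on these 4 values gave p = 0.25, the smallest it allows being 0.125. The 4 values came from 3 litters and are not fully independent. Replicates 2 and 3 shared a litter, so only their numbers decide which KO heart is set against which WT heart. Without KO replicate 1 the log2 fold change was -2.30, and without the pair of replicate 1 it was -2.25. It was -1.07 without KO replicate 4, -1.27 without KO replicate 2 and -1.25 with array quality weights. Every direction below rests on the labels, including that of the library labelled KO replicate 1. Creld2, a paralog that encodes a stress-inducible endoplasmic reticulum protein, had a signal of 197, 327, 395 and 443 in KO hearts, against 386, 512, 393 and 350 in WT hearts. Its groups overlapped, and its log2 fold change of -0.32 (SE 0.28) gave an exact permutation p of 0.371, two-sided. Without KO replicate 1 it was -0.075, and without WT replicate 2 it was -0.20.

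**Figure D1:**
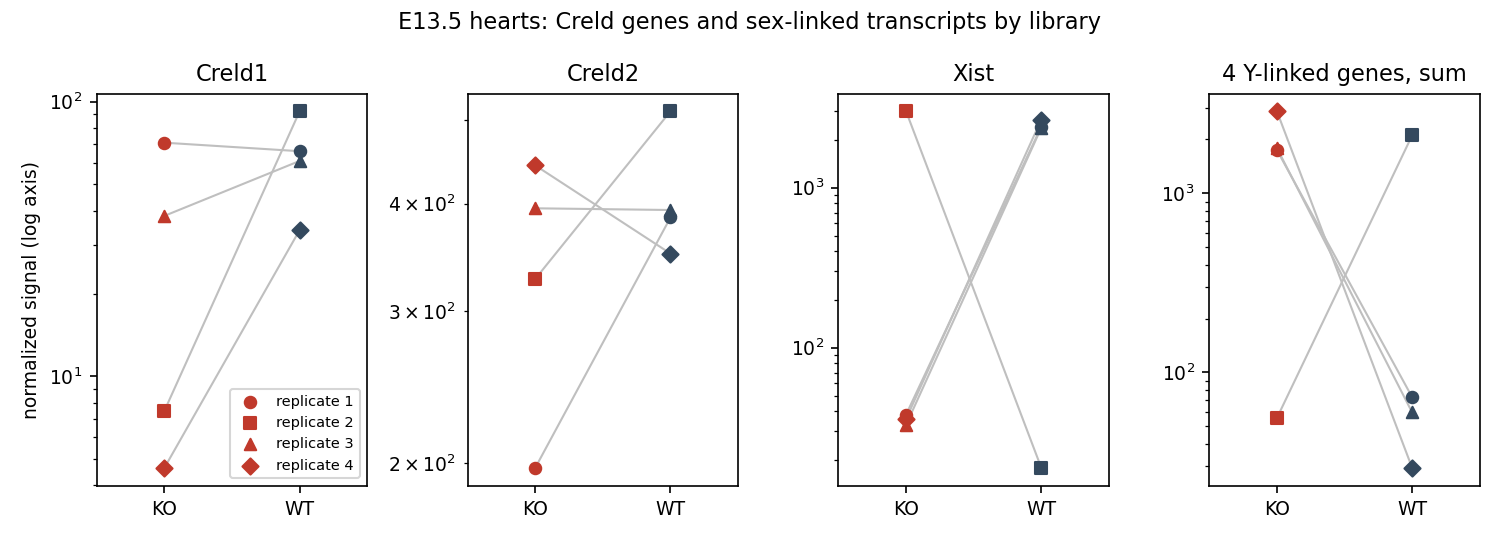
Normalized signal (log axis) of Creld1, Creld2, Xist and the sum of 4 Y-linked genes in the 4 KO libraries (left) and the 4 WT libraries (right), with lines joining the libraries of the same replicate number. Creld1 lay between 4.64 and 70.9 in KO and between 34.0 and 92.2 in WT, and Xist was low in 3 KO libraries and in 1 WT library.

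The libraries held 5579749 to 13965262 counts, estimated from the step between low values, and 18981 to 21194 genes had a signal above 0. Libraries of the same genotype correlated at 0.818 to 0.871 over the log2 values of the genes tested (median 0.837, 12 pairs), and libraries of different genotype at 0.816 to 0.868 (median 0.839, 16 pairs). The first principal component held 17.8% of the variance and set WT replicate 3 apart, and the second held 17% and set KO replicate 4 and WT replicate 1 apart in opposite directions. The sexes were unevenly spread. Xist, the transcript of the inactive X chromosome, was 38.2, 3003, 33.0 and 35.9 in KO replicates 1 to 4, against 2407, 17.8, 2369 and 2670 in WT replicates 1 to 4. The summed signal of 4 Y-linked genes was high where Xist was low, in 3 KO libraries and 1 WT library, so that sex and genotype were partly confounded. The labels do not give sex, and its part in the differences below was examined only through the autosomal genes and an Xist covariate. Lung transcripts were found in WT replicate 1 alone, with a signal of 139 for Nkx2-1 and 41.3 for Sftpc, both listed at 0 in the other 7 libraries. Other markers of neighbouring tissue were more widely spread. Epcam, of epithelia, was 111, 80.8, 39.7 and 9.97 in KO replicates 1 to 4, against 135, 13.8, 0 and 5.47 in WT replicates 1 to 4. Afp, of liver, reached 248 in KO replicate 1, 108 in KO replicate 4 and 139 in WT replicate 1, and Krt5, of keratinocytes, 71.5 in KO replicate 1. Their part in the results below was not tested, beyond leaving out each library.

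Heart muscle transcripts were abundant in every library, as the labelled tissue requires. Tnnt2, cardiac troponin T, averaged 19022 ± 3545 in KO hearts and 17974 ± 2261 in WT hearts (SD, n = 4 each), and Actc1, cardiac actin, 27434 ± 3463 in KO hearts and 28631 ± 2025 in WT hearts. Ttn, titin, averaged 37609 ± 2321 in KO hearts and 38255 ± 2062 in WT hearts. Endothelial Pecam1 averaged 344 ± 77.9 in KO hearts and 371 ± 108 in WT hearts, epicardial Tbx18 718 ± 44.0 in KO hearts and 629 ± 145 in WT hearts, and fibroblast Col1a1 8117 ± 3555 in KO hearts and 6695 ± 859 in WT hearts. In tissue of mixed cells, fewer cells of a type and less RNA per cell cannot be told apart. Blood was the most variable component. The summed signal of 15 erythroid genes was 246995, 104828, 118044 and 48273 in KO replicates 1 to 4, against 235962, 61650, 169178 and 70810 in WT replicates 1 to 4. The sums were highest in replicate 1 of both genotypes and lowest in KO replicate 4. Sox10, the transcription factor of neural crest and glia, was listed at 0 in all 8 libraries, and macrophage Csf1r reached at most 102 in KO hearts and 117 in WT hearts. Of the skeletal muscle markers, Actn3 reached 97.1 in WT replicate 3, and Myh3 reached 62.1 in KO replicate 2 and 129 in WT replicate 4.

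The first question was which genes differ between KO and WT hearts. Of the 15498 genes with a signal of at least 10 in at least 3 of the 8 libraries, limma called 0 higher and 0 lower in KO hearts at a Benjamini-Hochberg adjusted p under 0.05. The smallest adjusted p in limma was 0.997. An unadjusted p under 0.05 was reached by 689 genes (4.45%), of which 363 (2.34%) were higher and 326 (2.10%) lower in KO hearts. All 4 KO values lay above all 4 WT values in 207 genes (1.34%) and below them in 209 (1.35%), together 416 genes (2.68%). KO exceeded WT in all 4 pairs of the same replicate number in 909 genes (5.87%), and WT exceeded KO in all 4 in 938 (6.05%). The log2 fold change was above 0 in 7873 genes (50.8%), and its median over all genes was 0.01. Complete separation in either direction occurs in a share of 0.0286 of the 70 ways to place the labels. The share of genes without overlap was no higher than that, and the share at an unadjusted p under 0.05 lay below the threshold itself. The observed shares are the background against which the gene groups below are read.

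How small a difference these 8 hearts could bound depended on the level of the gene. The median half-width of the 95% confidence interval of the log2 fold change was 2.2 for the 3971 genes with a mean signal under 30, 0.82 for the 3699 genes between 100 and 300, and 0.35 for the 393 genes above 3000. In 4801 genes the whole interval lay within a log2 change of 1 in either direction. Such an interval holds for each gene taken alone and is not adjusted for the number of genes. Genes of this kind included 96.7% of those above 3000, 81.8% of those between 300 and 1000, 35.9% of those between 100 and 300, 3.95% of those between 30 and 100, and 0% of those under 30.

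**Figure D2:**
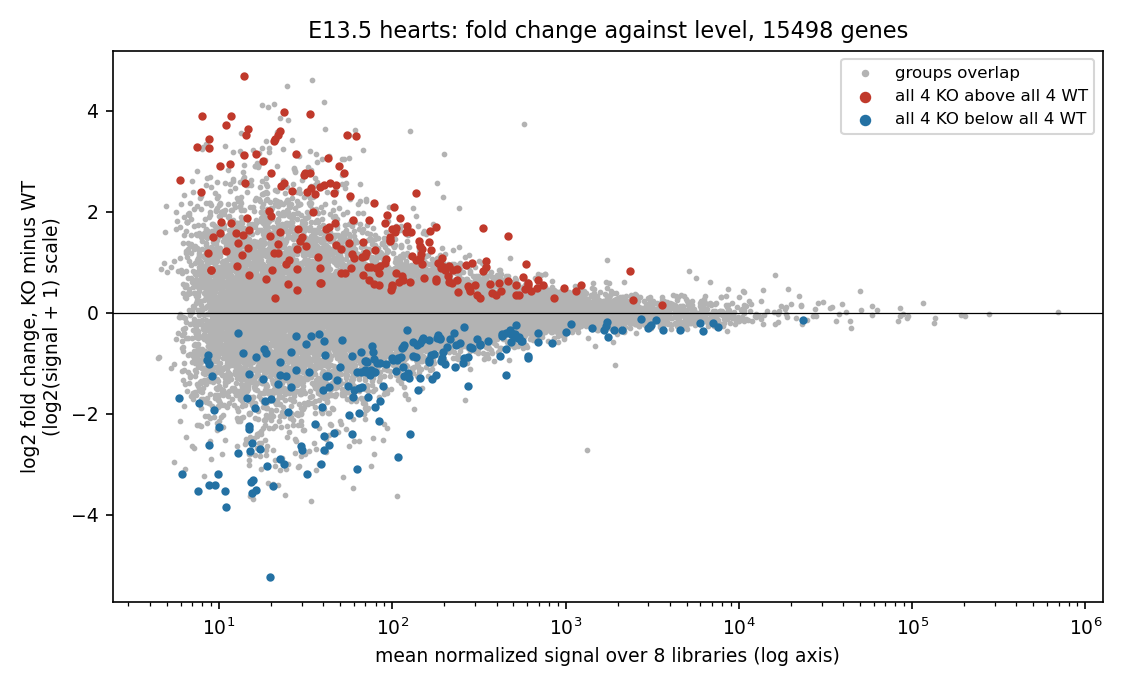
Log2 fold change, KO minus WT on the log2(signal + 1) scale, against the mean normalized signal over the 8 libraries (log axis) for 15498 genes. The 207 genes with all 4 KO values above all 4 WT values and the 209 with all 4 below are coloured, and the spread of the fold changes narrows as the level rises.

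The genes nearest to Creld1 in function showed no difference past the test. Of 22 genes of the calcineurin and NFAT pathway, Creld1 and Creld2 included, 9 had a positive and 13 a negative log2 fold change, the median was -0.08, and 0 reached an unadjusted p under 0.05. Rcan1, a calcineurin inhibitor whose own transcription responds to NFAT, had a log2 fold change of -0.24 with a 95% interval of -0.72 to 0.25. The catalytic subunit Ppp3ca had one of -0.10 (-0.45 to 0.25) and Ppp3cb one of 0.46 (-0.22 to 1.13). Nfatc1, the NFAT factor of endocardial valve cells, had a signal of 136, 150, 105 and 84.8 in KO hearts, against 95.9, 172, 110 and 184 in WT hearts. Its groups overlapped, and its interval of -0.98 to 0.54 still allows a decrease close to a log2 change of 1. For 14 of the 22 genes the interval lay within a log2 change of 1 in either direction.

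Contractile genes were closely bounded. Among 29 sarcomere genes 23 had a negative and 6 a positive log2 fold change, with a median of -0.07, and 0 reached an unadjusted p under 0.05. In 26 of the 29 the interval lay within a log2 change of 1. Myh6 and Myh7, the alpha and beta myosin heavy chains, had log2 fold changes of -0.15 (-0.46 to 0.16) and 0.01 (-0.50 to 0.51). Tpm1, tropomyosin, was the sarcomere gene whose groups did not overlap. Its signal was 21633, 20879, 22839 and 23198 in KO hearts, against 24662, 24451, 24005 and 25295 in WT hearts, a log2 fold change of -0.15 (SE 0.10). Although every KO value was below every WT value, this difference had an unadjusted p of 0.163 in limma, whose variance is shared with genes of the same level. The median of the list stayed between -0.14 and -0.02 under all 23 other settings.

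Regulators of heart formation were spread around no change. Among 32 cardiac transcription factors 20 were positive and 12 negative, with a median of 0.03 and 0 at an unadjusted p under 0.05. Nkx2-5 had a log2 fold change of 0.37 (-0.78 to 1.52), Gata4 0.54 (-0.32 to 1.39), Tbx5 -0.28 (-0.85 to 0.28) and Tbx20 0.30 (-0.13 to 0.73). The lowest value, -1.24 (-2.59 to 0.10), was that of Gata5, which is expressed in endocardium. The 17 genes that distinguish trabecular from compact myocardium had a median of 0.03, and the 12 natriuretic and stress genes one of -0.04. Nppa, the atrial natriuretic peptide, was 11961, 6073, 8757 and 9894 in KO hearts, against 7358, 9484, 11156 and 11528 in WT hearts, and the groups overlapped. Nppb, the brain natriuretic peptide, was 435, 354, 632 and 476 in KO hearts, against 398, 536, 888 and 634 in WT hearts, again with overlap. Among 31 calcium handling and ion channel genes 15 were positive and 16 negative, and the sarcoplasmic calcium pump gene Atp2a2 had a log2 fold change of -0.18 (-0.48 to 0.13).

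Cushion and septation genes, the group closest to the defects linked to Creld1 in people, were evenly divided. Of 35 genes 18 were positive and 17 negative, the median was 0.01, and 0 reached an unadjusted p under 0.05. Tgfb1, a ligand, had a signal of 11.3, 21.5, 12.2 and 15.0 in KO hearts, against 26.4, 27.6, 37.6 and 28.2 in WT hearts. Its groups did not overlap, with a log2 fold change of -0.98 (SE 0.57) at a level where intervals are wide. The other ligands Tgfb2 and Bmp2 had log2 fold changes of -0.09 (-0.61 to 0.43) and 0.20 (-0.56 to 0.96). The receptor gene Bmpr1a had 0.49 (-0.04 to 1.02), and Sox9, the transcription factor of valve mesenchyme, 0.05 (-0.39 to 0.48). The 15 Notch pathway genes had a median of 0.08 and the 29 Wnt and FGF genes one of 0.03, each with 0 members higher at an unadjusted p under 0.05. Rspo3, an amplifier of Wnt signalling, was 188, 126, 160 and 155 in KO hearts, against 235, 218, 382 and 196 in WT hearts. Its groups did not overlap, its log2 fold change was -0.67 (SE 0.29), and its exons overlap a gene on the other strand.

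Among 27 endothelial and endocardial genes 14 were positive and 13 negative, with a median of 0.03. At an unadjusted p under 0.05, 2 (7.41%) were lower, against 2.10% of all genes, and 0 were higher. Klf2, a transcription factor induced by flow, had a signal of 98.0, 125, 113 and 95.5 in KO hearts, against 162, 175, 167 and 170 in WT hearts, a log2 fold change of -0.65 (SE 0.28). Tek, which encodes the angiopoietin receptor, was 565, 613, 575 and 601 in KO hearts, against 672, 705, 978 and 815 in WT hearts, a log2 fold change of -0.41 (SE 0.19). In both genes every KO value was below every WT value, and both had an adjusted p of 0.997 in limma. Pecam1, Kdr and Cdh5, which mark the same cells, had log2 fold changes of -0.09, -0.01 and 0.36.

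Mesenchymal genes leaned towards KO hearts in sign and median, without a call. Of 17 fibroblast and mesenchyme genes 14 had a positive log2 fold change, against 50.8% of all genes, with a median of 0.27 that stayed between 0.23 and 0.33 under the 23 other settings. In all 4 pairs 1 (5.88%) was higher, against 5.87% of all genes, and 2 (11.8%) were lower, against 6.05%. The members share each library's composition and are not independent replicates. Col3a1, a fibrillar collagen, had a signal of 8387, 9300, 10381 and 6921 in KO hearts, against 7033, 7136, 6269 and 7387 in WT hearts, a log2 fold change of 0.32 (SE 0.14), and the groups overlapped. Ddr2, a collagen receptor, was 169, 412, 162 and 191 in KO hearts, against 97.1, 41.1, 156 and 108 in WT hearts. Its groups did not overlap, with a log2 fold change of 1.24 (SE 0.45), although its exons overlap a gene on the other strand. The summed signal of the list was 36758, 49933, 42698 and 37119 in KO hearts, against 39326, 36437, 35160 and 35817 in WT hearts, so that KO replicate 2 was the highest and the groups overlapped. The list held members of the 36 collagen and matrix genes, 24 of which were positive with a median of 0.17, or 0.06 without KO replicate 2. Fn1, fibronectin, was 3846, 3688, 3625 and 4110 in KO hearts, against 3416, 3404, 3460 and 3422 in WT hearts, a difference without overlap but of only 0.15 (SE 0.12) on the log2 scale. Col18a1, a basement membrane collagen, was 360, 499, 466 and 360 in KO hearts, against 613, 554, 576 and 599 in WT hearts, with a log2 fold change of -0.49 (SE 0.20).

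Epicardial genes had a median of 0.38, with 12 of 17 positive and 0 at an unadjusted p under 0.05. This median was 0.15 without WT replicate 2 and 0.22 without WT replicate 3. Of the defining markers, Wt1 and Upk3b lay at -0.13 each, Tbx18 at 0.22 and Upk1b at 0.44. The 16 smooth muscle and pericyte genes had a median of 0.10. Among 17 macrophage genes 6 were positive and 11 negative, with a median of -0.04. Cd68, a lysosomal protein of macrophages, was 14.5, 27.5, 25.5 and 39.8 in KO hearts, against 4.65, 25.6, 1.4 and 3.14 in WT hearts, with a log2 fold change of 2.08 (SE 0.87), while Csf1r, the growth factor receptor of these cells, had 0.67 and the surface marker Adgre1 had -1.67. The 9 nerve, glia and crest genes that could be tested had a median of 0.01. Gap43, a growth cone protein, was 221, 344, 130 and 335 in KO hearts, against 165, 127, 123 and 147 in WT hearts, with overlap.

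Ribosomal protein genes gave the most one-sided list. Of 78 genes of cytosolic ribosomal proteins 75 had a negative log2 fold change, against 49.2% of all genes, with a median of -0.19 and values between -0.39 and 0.24. At an unadjusted p under 0.05, 4 (5.13%) were lower in KO hearts, against 2.10% of all genes, and 0 were higher. In all 4 pairs 16 (20.5%) were lower, against 6.05% of all genes. Other lists came close in this share, with 19.2% of heat shock chaperones, 17.2% of sarcomere genes and 16.1% of mitochondrial ribosomal protein genes. The size of the difference varied between pairs and was set largely by replicate 1. The median over the 78 genes was -0.62 in replicate 1, 0.12 in replicate 2, -0.18 in replicate 3 and -0.10 in replicate 4. It was -0.11 without WT replicate 1, the library that held lung transcripts, -0.29 without WT replicate 2, -0.07 without the pair of replicate 1, and -0.09 with Xist as a covariate, and its sign did not change under any of the 23 other settings. The summed signal was 250910, 276689, 270945 and 288315 in KO replicates 1 to 4, against 364015, 259596, 316410 and 306684 in WT replicates 1 to 4, so that the groups overlapped and WT replicate 1 was the highest. In all 78 genes the 95% interval lay within a log2 change of 1 in either direction. These genes are not independent replicates, since they share each library's composition, and their smallest adjusted p in limma was 0.997.

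The members at an unadjusted p under 0.05 were Rpl8 and Rpl27a of the large and Rps13 and Rps27 of the small ribosomal subunit. Rpl8 had a signal of 2014, 1720, 1926 and 1848 in KO hearts, against 2648, 2313, 2133 and 2407 in WT hearts, a log2 fold change of -0.34 (SE 0.14). Rps13 was 2852, 3516, 3022 and 3475 in KO hearts, against 4616, 3864, 4247 and 3541 in WT hearts. Rps27 was 4418, 3006, 4330 and 4439 in KO hearts, against 5461, 4826, 4635 and 5573 in WT hearts. In these 3 genes no KO value reached a WT value. Rpl27a was 1541, 1892, 2195 and 1919 in KO hearts, against 2828, 1951, 2713 and 2443 in WT hearts, and its groups overlapped. Processed pseudogenes share sequence with ribosomal protein genes, so their values depend on how the authors counted such reads, which was not stated.

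Vertebrate ribosomal protein genes typically start transcription within a run of pyrimidines, the feature that ties their translation to growth signals. The promoters of the members above that RefSeq's GRCm38.p6 table holds are shown because 75 of the 78 members had the same sign. Each is given 5′ to 3′ on the gene's strand, from 150 bases before the start through the first 20 bases of the transcript, and the fourth gene had no entry matched. Capitals mark a pyrimidine run of at least 8 bases that covers the start, or the hexamer CTTCCG on either strand (CGGAAG), the core of ETS-factor sites, and the marks do not overlap here.
Rps13, chr7:116334171-116334340, minus strand: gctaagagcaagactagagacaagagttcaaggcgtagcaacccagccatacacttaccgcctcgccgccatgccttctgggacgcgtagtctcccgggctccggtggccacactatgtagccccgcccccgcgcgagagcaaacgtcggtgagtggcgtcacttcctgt
Rpl27a, chr7:109519045-109519214, plus strand: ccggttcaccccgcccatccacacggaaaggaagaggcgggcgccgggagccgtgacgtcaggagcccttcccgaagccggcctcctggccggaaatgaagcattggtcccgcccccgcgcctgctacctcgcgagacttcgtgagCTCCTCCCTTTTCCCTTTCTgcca
Rps27, chr3:90213629-90213798, minus strand: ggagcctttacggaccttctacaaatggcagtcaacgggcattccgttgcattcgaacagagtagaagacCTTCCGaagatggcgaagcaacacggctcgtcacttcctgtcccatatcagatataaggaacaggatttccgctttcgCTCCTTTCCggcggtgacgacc
Over windows of 300 bases, the run was present in 18 of 57 matched ribosomal protein genes (31.6%), against 4.59% of 27018 genes, and the hexamer in 39 of 57 (68.4%), against 18.8%. These are features of the letters and say nothing of binding in these hearts.

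**Figure D3:**
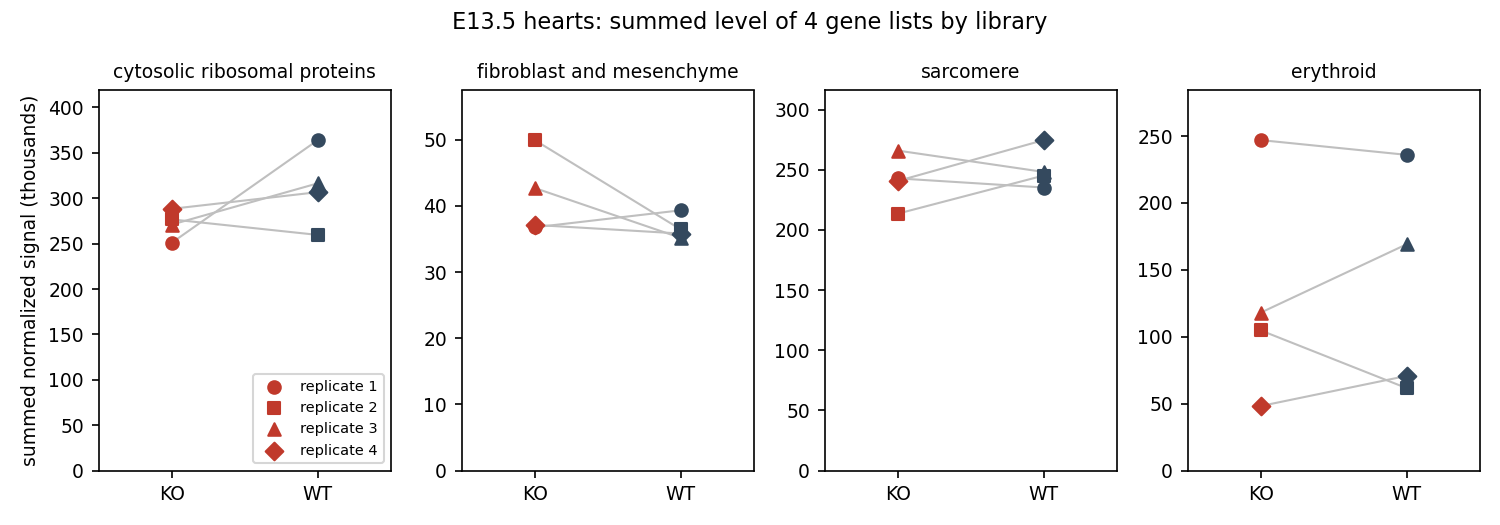
Summed normalized signal (in units of 1000, linear axis from 0) of 4 gene lists in the 4 KO libraries (left) and the 4 WT libraries (right), with lines joining the same replicate number. Ribosomal protein genes ranged from 250910 to 288315 in KO and from 259596 to 364015 in WT, sarcomere genes lay in overlapping ranges, and the erythroid sum spread most, from 48273 to 246995 in KO and from 61650 to 235962 in WT.

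Mitochondrial genes were tightly bounded. All 77 nuclear genes of the respiratory chain and ATP synthase had an interval within a log2 change of 1 in either direction, as had the 15 mitochondrially encoded ones, and 0 of either list reached an unadjusted p under 0.05. The medians were -0.05 and -0.07. The 32 fatty acid oxidation genes had a median of 0.08 and the 26 glycolysis genes one of 0.02. Of 56 mitochondrial ribosomal protein genes, 1 (1.79%) was lower at an unadjusted p under 0.05, against 2.10% of all genes. This was Mrpl28, with a signal of 194, 264, 301 and 215 in KO hearts, against 308, 372, 560 and 283 in WT hearts. Mrps11, also of this list, lay in the other direction without overlap, at 113, 125, 83.5 and 92.5 in KO hearts, against 30.7, 79.1, 70.5 and 53.8 in WT hearts, and its exons overlap Mrpl46 on the other strand.

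Chaperones of the endoplasmic reticulum, the compartment in which the Creld1 protein resides, had a median of 0.05 over 32 genes. Hspa5, the chief chaperone of this compartment, had a log2 fold change of -0.14 (-0.42 to 0.15) and Hsp90b1 one of 0.04 (-0.22 to 0.29). Xbp1, a transcription factor of the unfolded protein response, was 126, 228, 137 and 175 in KO hearts, against 59.8, 109, 130 and 35.0 in WT hearts, a log2 fold change of 1.12 (SE 0.44), with overlap through WT replicate 3. Among 26 cytosolic heat shock chaperones the median was -0.10 and 16 were negative. Dnajb1, a co-chaperone of HSP70, was 42.4, 132, 69.2 and 37.6 in KO hearts, against 178, 105, 80.2 and 182 in WT hearts, with overlap. The 22 hypoxia genes had a median of -0.13. In that list Epas1, which encodes the hypoxia-inducible factor HIF-2 alpha, was 342, 144, 253 and 299 in KO hearts, against 389, 362, 414 and 362 in WT hearts, a log2 fold change of -0.62 (SE 0.28) without overlap, which was -0.36 without KO replicate 2. Ankrd37, also in the list, overlapped between groups, with values of 6.58 to 38.2 in KO hearts and 29.3 to 81.8 in WT hearts.

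Among DNA repair genes more members reached an unadjusted p under 0.05 than among all genes. Of 44 genes, 6 (13.6%) were higher, against 2.34% of all genes, and 2 (4.55%) were lower, against 2.10%, with a median of 0.12 that was -0.06 without WT replicate 2. The list was written after the values of Nabp1 and Xpa had been seen to lie apart between the groups, although neither gene was called. Its counts include both genes and are a description. Nabp1, which encodes a single-stranded DNA binding protein, had a signal of 198, 229, 189 and 139 in KO hearts, against 32.9, 67.6, 117 and 52.3 in WT hearts, a log2 fold change of 1.59 (SE 0.41). Fanci, a Fanconi anaemia protein gene, was 123, 38.2, 62.0 and 31.8 in KO hearts, against 2.26, 24.3, 5.61 and 18.1 in WT hearts, a log2 fold change of 2.48 (SE 0.78). Neither gene's groups overlapped. Fanca, of the same pathway, was 61.1, 139, 72.1 and 50.1 in KO hearts, against 31.5, 21.9, 34.0 and 59.1 in WT hearts, with overlap. The remaining higher members were Chek2, a checkpoint kinase, Ercc5, an excision repair nuclease, and Ddb2, a damage sensor, with log2 fold changes of 1.07, 1.10 and 3.11 and overlapping groups. Ddb2 rests on few counts, since it was 23.0, 83.1, 3.99 and 99.6 in KO hearts and 5.15, 0, 0.65 and 16.8 in WT hearts.

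In the opposite direction Xpa, which verifies DNA damage in excision repair, was 105, 117, 89.6 and 111 in KO hearts, against 312, 207, 220 and 266 in WT hearts. Every KO value was below every WT value, with a log2 fold change of -1.23 (SE 0.28). Rpa2, a subunit of the single-strand binding complex with which Xpa works, was 205, 88.2, 142 and 149 in KO hearts, against 218, 236, 210 and 312 in WT hearts, a log2 fold change of -0.78 (SE 0.31), also without overlap. In all, 2 of the 44 members were higher and 3 lower without overlap, against 1.34% and 1.35% of all genes. The strand used in counting was not stated, so reads of Fanci cannot be told from those of Polg, nor those of Xpa from those of Ncbp1, Fanca from Zfp276 or Ddb2 from Acp2, each of which shares exon positions on the other strand. Nabp1, Rpa2, Chek2 and Ercc5 have no such overlap in GENCODE M21.

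Proliferation genes were spread to both sides of 0. Among 50 mitosis genes 28 were positive and 22 negative, with a median of 0.06 and with 37 intervals within a log2 change of 1. Kif11, the motor that separates the spindle poles, had a signal of 459, 423, 536 and 524 in KO hearts, against 293, 74.4, 81.6 and 289 in WT hearts, a log2 fold change of 1.67 (SE 0.44) without overlap. Kif20a, a motor of cytokinesis, was 376, 208, 229 and 141 in KO hearts, against 329, 313, 375 and 479 in WT hearts, a log2 fold change of -0.71 (SE 0.31). The 48 DNA replication genes had a median of -0.09. Gins4, a subunit of the replicative helicase, was 270, 428, 336 and 365 in KO hearts, against 221, 131, 193 and 186 in WT hearts, a log2 fold change of 0.94 (SE 0.27) without overlap. E2f2, a transcription factor of the cell cycle, was 30.4, 40.4, 22.4 and 29.9 in KO hearts, against 20.5, 3.46, 11.9 and 16.4 in WT hearts, a log2 fold change of 1.36 (SE 0.68), or 0.88 without WT replicate 2. Among 28 cell cycle regulators the median was 0.26 (0.07 with Xist as a covariate). Rb1, the retinoblastoma gene, was 246, 263, 260 and 390 in KO hearts, against 136, 233, 181 and 185 in WT hearts, a log2 fold change of 0.65 (SE 0.27) without overlap. Its relative Rbl2 was 225, 218, 177 and 184 in KO hearts, against 263, 80.9, 24.5 and 36.0 in WT hearts, where WT replicate 1 exceeded all KO values. Both have exons that overlap genes on the other strand.

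Some single members stood out in the remaining lists. A further list joined tRNA modification genes with the KEOPS complex, which modifies tRNAs decoding ANN codons (26 genes, median -0.23). Like the other lists, it was written with earlier results of these data known, so its members are a description. The KEOPS subunit genes Tprkb and Gon7 had a log2 fold change of -2.41 (SE 0.65) and -0.88 (SE 0.28), each without overlap. The median of the list was 0.04 without the pair of replicate 4, and -0.04 without KO replicate 2. The values of Gon7 were 264, 210, 159 and 140 in KO hearts, against 314, 437, 278 and 375 in WT hearts. Exons of Gon7 overlap Gm20604 and Gm28051 on the same strand. Trmt6, of the tRNA m1A methyltransferase, lay in the other direction at 0.81 (SE 0.36), or 0.54 without WT replicate 4. Of 37 genes in the proteasome list 26 were negative, with a median of -0.08. This list also holds Fam192a, a gene of a proteasome activator's binding protein that is described below, which had its lowest value, -2.86 (SE 0.77). Psmd4, a ubiquitin receptor of the proteasome, was 298, 414, 485 and 417 in KO hearts, against 459, 556, 785 and 592 in WT hearts, with overlap. Among 13 replication-dependent histone genes, Hist1h4i was 5.06, 19.7, 6.04 and 4.28 in KO hearts, against 51.7, 81.3, 98.5 and 43.8 in WT hearts, a log2 fold change of -3.00 (SE 0.65). Hist1h2ac was 0.63, 7.88, 4.31 and 0 in KO hearts, against 37.3, 12.1, 9.34 and 31.4 in WT hearts. Neither histone gene's groups overlapped, both are low, and near-identical copies elsewhere in the cluster could share reads. Of the 31 RNA helicase and splicing genes, Srsf2, a splicing factor, was 15303, 11283, 13423 and 8539 in KO hearts, against 7769, 10925, 7752 and 9204 in WT hearts, with overlap. Pmvk, of the 25 cholesterol synthesis genes (median 0.06), was 66.3, 39.5, 111 and 71.8 in KO hearts, against 88.4, 230, 165 and 207 in WT hearts, with overlap. Igfbp4, a binding protein among the 27 genes of the IGF axis and imprinted growth (median -0.02), was 582, 555, 564 and 607 in KO hearts, against 487, 393, 413 and 541 in WT hearts, a log2 fold change of 0.34 (SE 0.19). H19, an imprinted non-coding RNA of the same list, was 7167, 6129, 6804 and 7122 in KO hearts, against 9702, 7472, 7602 and 8411 in WT hearts, a log2 fold change of -0.28 (SE 0.13). For Igfbp4 every KO value lay above every WT value, and for H19 every KO value lay below. The 12 genes of AMP-activated kinase had a median of 0.11, the 16 immediate early genes 0.07 and the 10 testable genes of neighbouring tissues 0.62. The last had no interval within a log2 change of 1, and its median lay between -0.62 and 0.98 under the other settings.

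**Figure D4:**
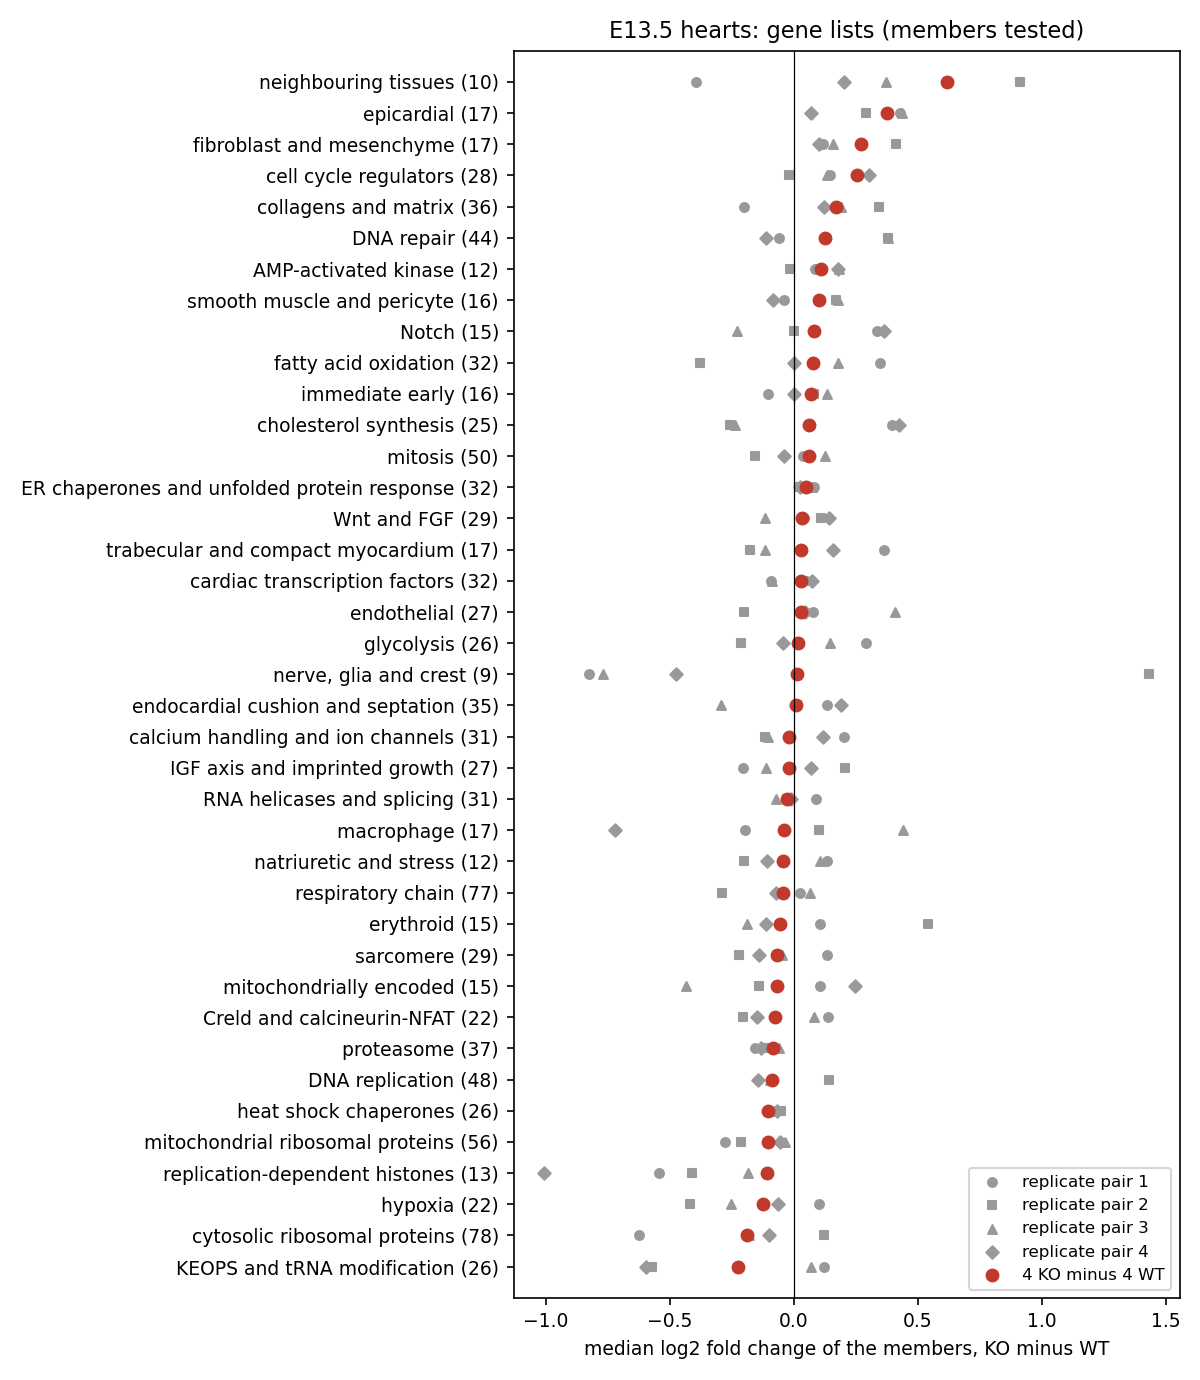
Median log2 fold change of the members of 39 gene lists (red, 4 KO minus 4 WT) and the median within each of the 4 pairs of the same replicate number (grey), with the number of members tested in parentheses. Most medians lie near 0 and the pairs scatter to both sides, while the epicardial, the fibroblast and mesenchyme, and the endoplasmic reticulum chaperone lists have all 4 pairs above 0, the heat shock chaperone, mitochondrial ribosomal protein, proteasome and histone lists have all 4 below 0, and the ribosomal protein median of -0.19 joins a pair at -0.62 to one at 0.12.

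Single genes were then named by size among those with a mean signal of at least 100 and groups that did not overlap, sex-linked and unnamed genes left out. There were 71 such genes higher and 87 lower in KO hearts, and the 12 with the largest fold change in each direction are described. Since the rule selects genes without overlap, the separation of their groups, and with it the sign in each pair, is no finding. All 24 had an adjusted p of 0.997 in limma.

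Pkhd1l1, a large receptor-like membrane protein gene related to the polycystic kidney gene fibrocystin, had the largest difference towards KO hearts. It lies on chromosome 15, 44457494 to 44601369, plus strand of mm10. Its signal was 110, 364, 151 and 314 in KO hearts, against 31.5, 39.9, 36.9 and 52.2 in WT hearts, a log2 fold change of 2.37 (SE 0.44, interval 1.41 to 3.33). Nr2c1, an orphan nuclear receptor, was 148, 307, 92.1 and 107 in KO hearts, against 80.5, 39.6, 13.8 and 27.4 in WT hearts. Spen, a repressor that acts in Notch signalling and in X inactivation, was 342, 108, 55.9 and 218 in KO hearts, against 36.4, 26.1, 54.0 and 45.7 in WT hearts. The lowest KO value of Spen was thus close to the highest WT value. Prkag2, the regulatory subunit of AMP-activated kinase whose human mutations cause a glycogen storage cardiomyopathy, was 122, 263, 217 and 132 in KO hearts, against 18.4, 88.4, 59.2 and 78.1 in WT hearts, a log2 fold change of 1.71 (SE 0.51). Prkag2 and Spen have exons overlapping genes on the other strand, namely Prkag2os1 and Prkag2os2 for Prkag2 and Zbtb17 for Spen.

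Parpbp, an inhibitor of homologous recombination, was 216, 369, 115 and 308 in KO hearts, against 67.5, 90.4, 56.9 and 90.3 in WT hearts, a log2 fold change of 1.61 (SE 0.40). Grk3, a kinase that desensitizes G protein-coupled receptors, was 150, 183, 143 and 224 in KO hearts, against 44.8, 58.7, 30.1 and 124 in WT hearts, a log2 fold change of 1.60 (SE 0.44). Chd1l, a chromatin remodeller recruited to DNA breaks, was 347, 146, 170 and 158 in KO hearts, against 32.7, 117, 95.8 and 69.8 in WT hearts. In Chd1l KO replicate 1 was the highest library. Mllt11 was 181, 363, 202 and 201 in KO hearts, against 73.2, 103, 96.1 and 76.0 in WT hearts, a log2 fold change of 1.39 (SE 0.32), and its WT values lay close together. The zinc finger genes Zfp180 and Zfp263 had log2 fold changes of 1.70 (SE 0.62) and 1.67 (SE 0.66). Zfp180 ranged from 191 to 288 in KO hearts and from 16.3 to 176 in WT hearts, and Zfp263 from 112 to 199 in KO hearts and from 8.53 to 101 in WT hearts. In both WT replicate 3 was the lowest, and without it the log2 fold changes were 0.98 for Zfp180 and 0.91 for Zfp263. Kif11 and Nabp1, described above, complete the 12. Parpbp, Chd1l and Mllt11 overlap genes on the other strand.

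Fam192a, which encodes a nuclear protein that binds the proteasome activator PA28 gamma, had the largest difference in the other direction. It lies on chromosome 8, 94574138 to 94601997, minus strand of mm10. Its signal was 51.0, 37.3, 53.8 and 2.39 in KO hearts, against 215, 155, 190 and 157 in WT hearts, a log2 fold change of -2.86 (SE 0.77). Without KO replicate 4, the lowest, it was -1.91. Tprkb was 62.5, 69.3, 62.8 and 6.39 in KO hearts, against 196, 214, 246 and 161 in WT hearts, and its log2 fold change of -2.41 became -1.62 without KO replicate 4. In both genes the other 3 KO values also lay below every WT value, and in both the exons overlap a gene on the other strand, Rspry1 for Fam192a and Nat8f1 for Tprkb. Dhx30, an RNA helicase needed for mitochondrial ribosome assembly, was 163, 332, 289 and 302 in KO hearts, against 811, 478, 488 and 778 in WT hearts. Its log2 fold change was -1.24 (SE 0.29), and its exons overlap those of Smarcc1.

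Crebrf, which binds and inhibits the stress factor CREB3, was 142, 95, 106 and 233 in KO hearts, against 331, 278, 723 and 279 in WT hearts, a log2 fold change of -1.45 (SE 0.38). Prdm2, a histone methyltransferase gene, was 108, 21.1, 140 and 58.1 in KO hearts, against 164, 197, 290 and 145 in WT hearts, with a log2 fold change of -1.53, or -0.99 without KO replicate 2. Cnot11, a subunit of the CCR4-NOT deadenylase complex, was 130, 85.4, 53.2 and 112 in KO hearts, against 169, 343, 323 and 137 in WT hearts. Its 2 lower WT values, in replicates 1 and 4, lay close to the higher KO values of the same replicates. Gphn, which encodes the scaffold gephyrin, was 78.2, 107, 80.8 and 23.9 in KO hearts, against 231, 123, 122 and 164 in WT hearts, with a log2 fold change of -1.27, or -0.81 without KO replicate 4. Aldh3a2, a fatty aldehyde dehydrogenase, was 72.7, 72.4, 63.8 and 77.4 in KO hearts, against 239, 124, 224 and 114 in WT hearts, a log2 fold change of -1.20 (SE 0.36), with KO values much closer together than WT values. Ntmt1, an N-terminal methyltransferase, was 102, 63.4, 63.4 and 37.3 in KO hearts, against 142, 103, 164 and 164 in WT hearts. Nme6, of the nucleoside diphosphate kinase family, and Kif16b, an endosome motor, had log2 fold changes of -1.30 (SE 0.51) and -1.29 (SE 0.38), that of Nme6 being -0.76 without KO replicate 2, and Xpa, described above, completes the 12.

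**Figure D5:**
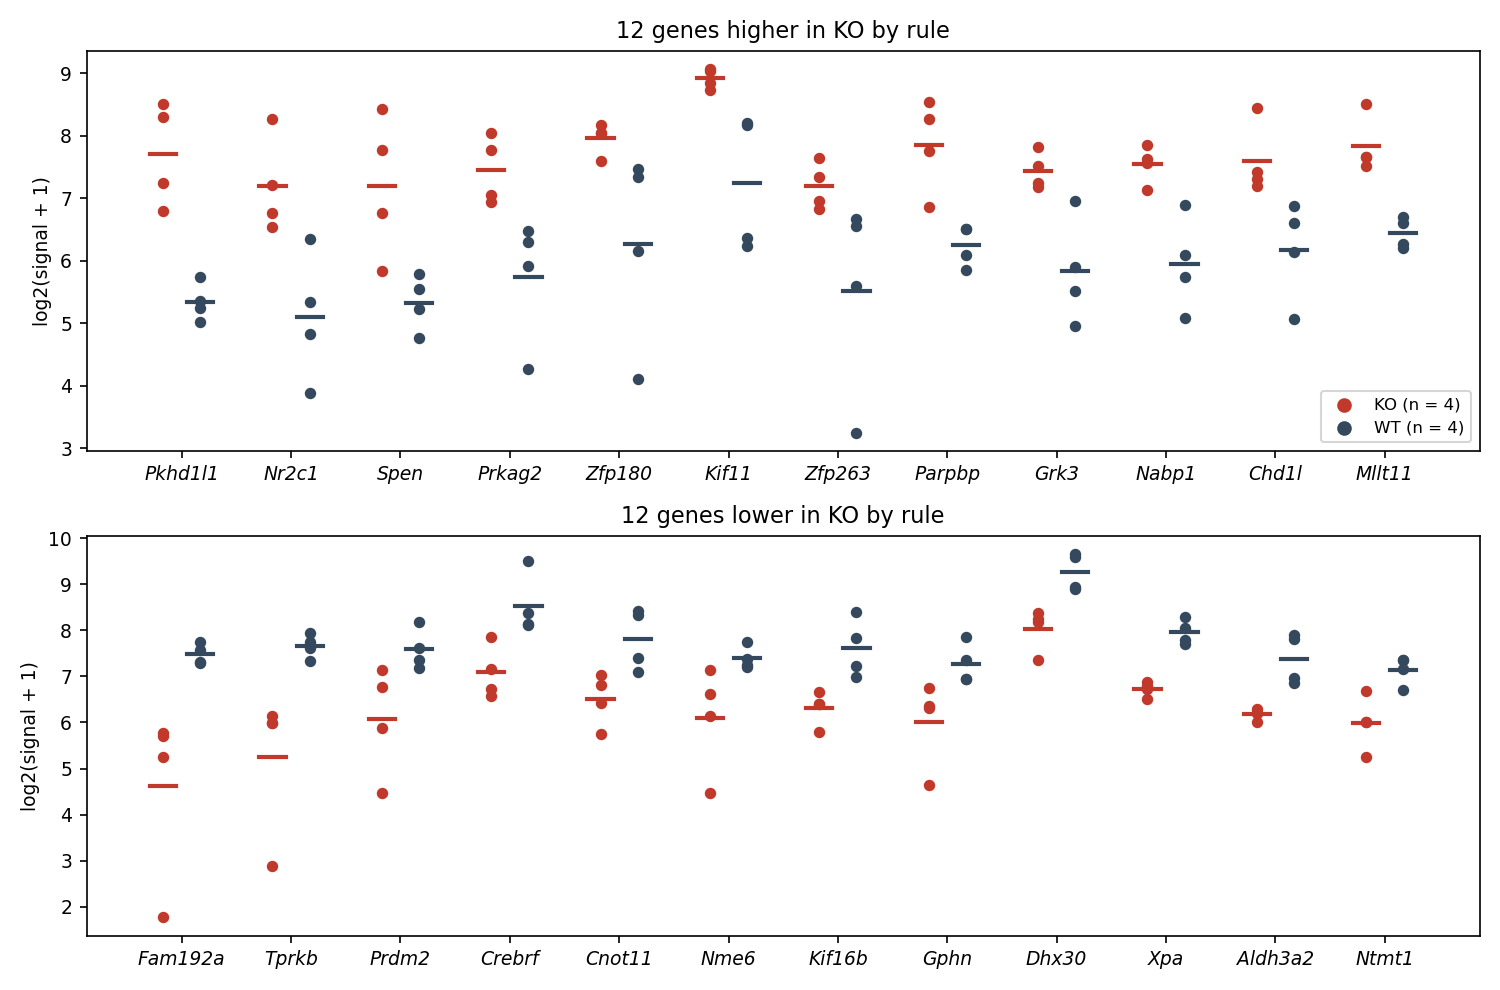
Log2(signal + 1) of the 12 genes with the largest fold change in each direction among those with a mean signal of at least 100 and no overlap, each with the 4 KO libraries (left) and the 4 WT libraries (right) and bars at the means. KO replicate 4 stands apart as the lowest point of Fam192a and Tprkb.

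Below a mean signal of 100, 3 genes were picked after their values were seen and are given as values. Sema3e, which encodes a semaphorin that repels growing vessels through plexin D1, was 57.4, 146, 43.6 and 161 in KO hearts, against 8.72, 11.6, 7.31 and 2.61 in WT hearts, a log2 fold change of 3.51 (SE 0.67). Sult1a1, a phenol sulfotransferase, was 57.4, 177, 39.3 and 103 in KO hearts, against 17.6, 10.5, 8.03 and 9.65 in WT hearts, a log2 fold change of 2.76 (SE 0.60), with exons overlapping Sgf29 on the other strand. Klf15, a metabolic transcription factor of heart muscle, was 13.1, 25.6, 20.6 and 13.3 in KO hearts, against 0.79, 0, 4.41 and 2.84 in WT hearts. In each of the 3 the KO values lay above all WT values, and in each the adjusted p in limma was 0.997.

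Whether the genotype effect in E13.5 hearts differed from that after birth was tested in a fit of all 20 libraries. Stage and dissection cannot be told apart in it, since E13.5 hearts were whole and P3 hearts were divided. Within P3 hearts the genotype effect itself was called by limma for 0 genes (0%) in ventricles and 5 (0.0323%) in atria. Against P3 ventricles limma called 0 of 15498 differences (612 at an unadjusted p under 0.05, 3.95%). With replicates as blocks, which the shared litters allow, it called 1, Nppa, which was -0.13 on the log2 scale at E13.5 and 2.70 in P3 ventricles. Against P3 atria it called 1 difference (0.00645%), with 789 at an unadjusted p under 0.05 (5.09%). The called gene was Mest, an imprinted gene expressed from the paternal copy, whose log2 fold change was -0.17 at E13.5 and 2.18 in P3 atria. The difference was -2.35 (SE 0.31, adjusted p = 0.00441 in limma). Its adjusted p in limma was 0.000926 to 0.0277 with a pseudocount of 10, with replicates as blocks or with any 1 E13.5 or P3 atrial library left out. At E13.5 Mest was 10213, 8813, 9037 and 12390 in KO hearts, against 9735, 12569, 11476 and 11411 in WT hearts, while in P3 atria it was 9463, 13530 and 12112 in KO, against 2405, 3004 and 2306 in WT. Among these groups the WT P3 atria were thus the group apart, below E13.5 hearts of both genotypes and below KO P3 atria. Levels of Mest in P3 ventricles are not given here. The P3 atria and ventricles share pups, which the fit treats as independent. With the ventricles left out, so that 14 libraries remain, the difference of Mest did not pass (adjusted p = 0.0752 in limma) and 0 genes were called, an alternative chosen after the data were seen. The exons of Mest overlap Copg2 on the other strand.

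With replicates as blocks limma called 4 differences against atria, Mest, Nppb, Casq1 and Lum. Nppb, whose difference of -3.78 missed the threshold without the block (adjusted p = 0.081 in limma) and passed with it (0.031), had log2 fold changes of -0.34 at E13.5 and 3.44 in P3 atria. In P3 atria it was 2769, 5153 and 2798 in KO, against 276, 626 and 179 in WT. Casq1, a calcium-binding protein of the sarcoplasmic reticulum, had -0.15 at E13.5 and 3.85 in P3 atria, and Lum, a proteoglycan of connective tissue, had 0.24 at E13.5 and -1.82 in P3 atria. The atrial WT library of replicate 2 held Myl2, a ventricular myosin light chain, at 9242, against 21.7 and 40.8 in the other WT atria, and without it the difference of Mest was -2.46 (adjusted p = 0.00521 in limma).

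Of the lists, the ribosomal protein genes had a median of -0.19 at E13.5, 0.01 in P3 ventricles and 0.63 in P3 atria, and the fibroblast and mesenchyme genes 0.27, 0.15 and -0.46. Sarcomere genes had medians of -0.07, 0.06 and 0.15, and mitosis genes 0.06, -0.03 and 0.70, in the same order. The natriuretic and stress genes had medians of -0.04 at E13.5, 0.77 in P3 ventricles and 0.36 in P3 atria. No member of these lists passed the test of the difference without the block, and no list-level test was made. For the genes leading the E13.5 comparison, Pkhd1l1, Fam192a, Tprkb and Sema3e among them, the difference between stages was likewise not called.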

How the data were processed

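RNA was extracted with the RNeasy Micro kit and libraries followed SMART-Seq2, per the labels' protocols. Tools listed, with no role, in the submitters' processing notes are STAR 2.5.1, bcl2fastq 2.2 and DESeq2, and the build is mm10. The authors deposited 1 table of 26440 genes. The authors' deposited signal values are linear and appear normalized per library. For the scaling, the counting tool and the strand setting, the entry is: not given in the sources used here. Low values were whole multiples of a step per library for 48.7 to 60.8% of values (within 0.001 counts), which gave estimated totals but not whole counts for most genes, so no count model was fitted. Depth covers counting error only. Replicates are separate embryos per the labels.

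Values were analysed as log2(signal + 1) in R 4.3.3 with limma 3.58.1 (variance trend, 6 residual and 6.05 prior degrees of freedom), two-sided, with Benjamini-Hochberg adjustment over 15498 genes. The fit was checked on simulated data. The 40 gene lists, the markers and the named genes were chosen with earlier results of these data known. Named genes were Creld1 and Creld2, the 12 per direction described in the text, and list members chosen by their values. The latter were all members with an unadjusted p under 0.05 or with groups that do not overlap. Others were named after their values were seen. The sex-linked genes Kdm5d and Tsix and 1 other gene that the rule names are not reported here. No set test was made. Litter labels are shared by libraries of the same number, which pairs them, although deviations from the group means correlated at only -0.016 to 0.015 within pairs. Replicates 2 and 3 at E13.5 share a litter, so between them the pairing follows the number alone. Blocks, other pseudocounts, filters, scalings, weights, an Xist covariate and left-out libraries were tried as alternatives. Gene positions are from GENCODE M21, which held 26401 of the 26440 IDs, and promoters from RefSeq (GRCm38.p6). Of the 75 named genes, 28 overlap exons of a gene on the other strand. No sample column was left unused.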

Additional observations from a re-analysis of the deposited data

Results flagged for a closer look

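In 5 of the 154 groups of 4 libraries examined, 150 of them for named genes and 4 for library depth and genes detected, a single library lay far from the other 3, and chance gives about 1 in 20. Fam192a was 2.39 in KO replicate 4, where the nearest KO value was 37.3, and Tprkb was 6.39 in the same library, where the nearest was 62.5. Rb1 was 390 in KO replicate 4, where the nearest KO value was 263. Mllt11 was 363 in KO replicate 2, where the nearest was 202, and Rps27 was 3006 in that library, where the nearest was 4330. KO replicate 4 was prepared in 2018 and has 6716816 estimated counts, the lowest of the KO libraries. The part of preparation or depth in these values was not tested.

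The genotype effect on Mest differed between E13.5 hearts and P3 atria. The difference, E13.5 minus atria, was -2.35 on the log2 scale in limma's test of the difference itself (adjusted p = 0.00441). Against P3 ventricles the difference of Mest was not called, so the call concerns the atria and not the stage as such. It was lost when the P3 ventricles were left out of the fit (adjusted p = 0.0752 in limma). Mest was higher in KO than in WT in 3 of 3 atrial pairs and in 2 of 4 pairs at E13.5.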

How the results depend on the processing

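No gene was called at E13.5 in limma under any of the 23 alternatives, and the smallest adjusted p among them was 0.109, in the fit of all 20 libraries. The number of genes at an unadjusted p under 0.05, 689 as reported, was 282 among the 7525 genes with a mean signal of at least 100, 1023 among 25435 genes without a filter, and 612 to 877 when a library was left out. No direction reversed for Creld1 or any of the 75 named genes. Most of them were named for a small p or for separated groups in these same libraries, so a stable sign was largely fixed by that choice. Of the medians of lists, 585 of 599 values under the other settings and 293 of 320 with a library left out moved by less than the spread between pairs, but the medians of 28 of the 40 lists changed sign under at least 1 of the 23 settings.

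With the replicate block (pairing by litter) there were 708 genes at an unadjusted p under 0.05 at E13.5 and 0 called, and 694 with the 3 litters as blocks; it changed no other call at E13.5. For the differences between stages the replicate block moved the calls against P3 ventricles to 1 and those against P3 atria to 4. Without the other P3 region, whose libraries share pups, 0 differences were called against either region (755 against ventricles and 646 against atria at an unadjusted p under 0.05 in limma). Leaving out a library of the groups compared gave 0 to 1 calls against ventricles, the 1 being Gm2026 without WT P3 ventricles replicate 2, and 1 to 2 against atria. The second gene there was Nppb without WT P3 atria replicate 2, Lum without WT P3 atria replicate 3 and Mb without KO P3 atria replicate 3.

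Genes below a mean signal of 300 have intervals too wide to bound a log2 change of 1 in most cases, so a missing call there does not show that the genotypes act alike. With 4 hearts per genotype, Creld1 itself did not pass the test.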
